A study of Mus musculus with 8 samples.

Results

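Integrins and cadherins are the receptors with which a tendon cell holds on to its matrix and to its neighbours. Their genes were taken by symbol from the deposited expression table, as all integrin alpha subunits (Itga), integrin beta subunits (Itgb) and numbered cadherins (Cdh). Genes named after proteins that merely bind a beta subunit were left out, while Itgb2l, named as resembling beta2, was kept among the beta subunits. This gave 50 genes of the 19301 listed, of which 27 encode integrins (18 alpha and 9 beta subunits) and 23 encode cadherins. mRNA was sequenced from TSCs, tendon stem cells cultured from the patellar tendon of C57BL/6J mice, in 2 groups of 4 biological replicates kept in their medium for 4 days. The HFHG group had high fat, high glucose medium, in which the fat was 300 µM palmitic acid, and the LG group had low glucose medium (5.5 mM glucose) with the solvent DMSO and no palmitic acid. Glucose and palmitic acid were changed together, so what each did cannot be told apart. The labels name no genetic change in either group, the age of the donor mice is not given in the sources used here, and the cells were primary cultures from digested tendon with no sorting described.

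An integrin is a pair of an alpha and a beta subunit that spans the membrane, binding collagen, laminin, fibronectin or another cell outside and talin, kindlin and the actin skeleton inside. The beta1 subunit pairs with many alpha subunits, so the alpha subunit largely sets which ligand is bound, while the beta2 subunit is typical of leukocytes. Cadherins bind the same kind of molecule on the next cell through calcium-dependent contacts and reach actin through catenins. In tendon, alpha11beta1 and its relatives are known as the receptors for fibrillar collagen, and cadherin-11 and N-cadherin hold tendon cells in rows.

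The HFHG libraries held 35385644 to 37362725 reads and the LG libraries 34308108 to 36308533, as recovered from the FPKM, and 16523 to 17015 genes were above 0 per library. FPKM counts the fragments on a gene corrected for gene length and sequencing depth, so levels of different genes can be compared, and each value is relative to its own library. LG replicate 4 stood apart from the other LG libraries on the component with the second largest variance (4.18%), the largest (81.0%) being the difference between the media. Without it, 11 members rose and 9 fell in place of 12 and 9, Itgb8 being the call that was lost. As a check of the labelled cell type, all 10 tendon markers passed the filter. Their summed level was 2497 to 2550 FPKM in HFHG and 1621 to 1656 FPKM in LG, mostly Col1a1, Col1a2, Dcn, Thbs4 and Tnc. Of the 10, 7 rose, 2 fell (Mkx by 0.35 and Egr1 by 0.40 on the log2 scale) and Dcn did not pass. Among all tested genes, 34.0% rose and 30.8% fell. The largest changes were those of Col1a1 (log2 fold change 1.36), Thbs4 (1.14) and Tnc (1.06). Scx rose from 1.45 FPKM in LG to 2.27 FPKM in HFHG (0.61, limma adjusted p = 0.0138). Tnmd rose from 0.614 to 1.10 FPKM (0.86, limma adjusted p = 0.0164). It was low and scattered in LG, at 0.220 to 0.916 FPKM, against 1.01 to 1.19 FPKM in HFHG. By qPCR, the paper reports lower Scx and Tnmd in HFHG medium and no significant change of Mkx. It also reports the change at the protein level, with a blot of TNMD. The cause of the difference from the RNA-seq values was not tested. Leukocyte and macrophage markers summed to 1798 to 1847 FPKM in HFHG and 1978 to 2068 FPKM in LG, mostly Lyz2, and 12 of these 13 markers passed the filter, so RNA of such cells was present in both groups.

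Of the 50 genes, 25 reached 0.5 FPKM in at least 4 of the 8 libraries and were tested, namely 20 integrins and 5 cadherins. With limma on log2(FPKM + 0.1) and Benjamini-Hochberg adjustment over all 11710 genes tested, 12 rose and 9 fell in HFHG at an adjusted p below 0.05, and 4 did not pass. Of all tested genes, 34.0% rose and 30.8% fell at this threshold, together 64.8%, and the 21 calls among 25 integrins and cadherins have to be read against that share. Past a log2 fold change of 1 lay Itga11, Itga4, Cdh18 and Itga1 (3.68% of all tested genes were called beyond this bound), and past -1 lay Itgb7 and Itgb3 (1.65% of all tested genes). Values of the 2 groups did not overlap for 20 of the 25 genes, against 59.2% of all tested genes. The median log2 fold change was 0.12 for the 25 genes and 0.02 for all tested genes. Fold changes on this scale understate the change of genes with low FPKM.

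**Figure D1:**
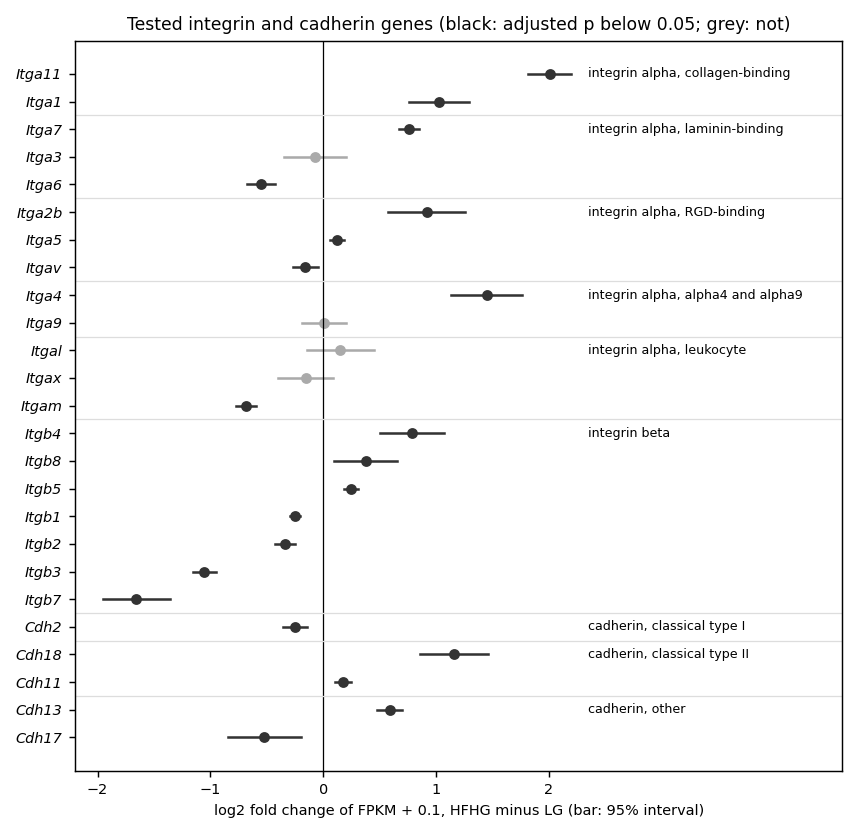
Log2 fold change of FPKM + 0.1 (HFHG minus LG, horizontal axis) for the 25 tested genes, grouped by the ligand of the alpha subunit, beta subunit or cadherin class; points are limma estimates, bars their 95% intervals, and grey marks an adjusted p of 0.05 or above. Itga11 lies farthest to the right at 2.01 and Itgb7 farthest to the left at -1.66, while Itga9 sits at 0.01.

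Both tested collagen receptors rose. Itga11, which encodes the alpha11 subunit for fibrillar collagen (NCBI gene 319480, chromosome 9 of GRCm38 from 62677826 to 62783982), was at 4.77, 5.01, 5.37 and 6.04 FPKM in the HFHG replicates and at 1.27, 1.15, 1.19 and 1.35 FPKM in the LG replicates. Every HFHG library thus exceeded every LG library by a wide margin. The means were 5.30 ± 0.551 and 1.24 ± 0.0885 FPKM (SD, n = 4 each), a 4.27-fold higher level. limma put the log2 fold change at 2.01 (standard error 0.0876, adjusted p = 7.27e-10), which ranked 46 among the increases of all tested genes. Itga1, the alpha1 subunit for collagen on chromosome 13 from 114953096 to 115101964, was at 1.79, 1.56, 1.59 and 1.55 FPKM in HFHG and 0.585, 0.792, 0.769 and 0.873 FPKM in LG. Its means of 1.63 ± 0.113 and 0.755 ± 0.122 FPKM gave a log2 fold change of 1.02 (standard error 0.122, adjusted p = 9.56e-06). The change kept its call without any single library, but it fell below 1 on the log2 scale without HFHG replicate 1 (0.98), the highest library, or LG replicate 1 (0.92), the lowest.

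The other collagen-binding alpha subunits were low. Itga2, which lies 20995 bases from Itga1 on the same chromosome and strand, was at 0.365 to 0.517 FPKM in HFHG and 0.353 to 0.492 in LG, so its groups overlapped (exact two-sided permutation p = 0.571). Itga10 was at 0.0953 to 0.277 FPKM in HFHG and 0.0780 to 0.139 in LG (exact permutation p = 0.143), and 33.5% of its exon bases are shared with the gene model Gm42957 on the same strand, so its reads are uncertain. In both media the alpha11 and alpha1 subunits therefore made up most of the collagen-receptor mRNA, and their balance moved. Itga1 was 0.610 of the Itga11 level in LG (0.460 to 0.689) and 0.310 in HFHG (0.257 to 0.376), and this ratio did not overlap between the groups (exact permutation p = 0.0286, the smallest that 4 against 4 libraries allow). In each medium, then, Itga11 was the higher of the pair. Because Gm49395 covers 3.68% of the exon bases of Itga1 on the same strand, a few of its reads may belong there.

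The stretches before the start sites of 5 members are given to show the control regions of both collagen receptors that rose, of their low relative Itga2 next to Itga1, of Itga4, with the largest rise after Itga11, and of Itgb7, with the largest fall. They were chosen after the values were seen. Each is the 250 bases upstream of a RefSeq transcript start on GRCm38.p6, 5′ to 3′ on the strand of the gene, at chr9:62677605-62677854 (+) for Itga11, chr13:115101965-115102214 (−) for Itga1, chr13:114932101-114932350 (−) for Itga2, chr2:79255176-79255425 (+) for Itga4 and chr15:102231936-102232185 (−) for Itgb7. Capitals mark matches, on either strand, to 6 short motifs: the E-box CACGTG, the GC box GGGCGG, the AP-1 motif TGANTCA, the TEAD motif CATTCC, the RUNX motif TGTGGT and the SMAD motif CAGAC.
Itga11: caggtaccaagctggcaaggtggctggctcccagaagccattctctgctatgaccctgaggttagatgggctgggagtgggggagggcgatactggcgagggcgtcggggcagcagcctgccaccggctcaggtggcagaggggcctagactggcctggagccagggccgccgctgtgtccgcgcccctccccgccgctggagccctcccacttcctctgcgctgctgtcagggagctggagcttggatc
Itga1: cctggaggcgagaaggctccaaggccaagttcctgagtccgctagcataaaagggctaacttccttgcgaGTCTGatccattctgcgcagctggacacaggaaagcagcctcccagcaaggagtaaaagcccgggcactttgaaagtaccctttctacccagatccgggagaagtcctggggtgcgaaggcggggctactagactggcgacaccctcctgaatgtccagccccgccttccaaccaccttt
Itga2: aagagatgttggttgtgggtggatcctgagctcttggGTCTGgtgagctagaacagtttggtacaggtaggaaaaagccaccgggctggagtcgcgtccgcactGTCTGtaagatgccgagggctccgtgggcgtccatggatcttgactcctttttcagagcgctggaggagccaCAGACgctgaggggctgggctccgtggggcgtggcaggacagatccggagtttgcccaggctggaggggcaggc
Itga4: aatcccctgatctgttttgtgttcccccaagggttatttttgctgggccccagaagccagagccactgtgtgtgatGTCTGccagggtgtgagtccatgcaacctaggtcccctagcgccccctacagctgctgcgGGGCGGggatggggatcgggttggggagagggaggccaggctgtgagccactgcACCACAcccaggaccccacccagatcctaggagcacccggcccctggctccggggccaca
Itgb7: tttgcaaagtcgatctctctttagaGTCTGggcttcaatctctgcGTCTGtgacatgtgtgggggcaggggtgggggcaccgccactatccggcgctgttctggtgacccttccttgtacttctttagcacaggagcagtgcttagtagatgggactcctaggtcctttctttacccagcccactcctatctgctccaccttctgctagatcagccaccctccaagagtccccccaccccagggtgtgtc

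The Itga11 stretch held none of these letters and was 68.4% GC, against a median of 52.4% over all 32851 promoter stretches of this length. The SMAD letters occurred in the stretches of Itga1, Itga2 (3 matches), Itga4 and Itgb7 (2 matches), and in 42.2% of all stretches. They were found before genes that rose, fell and overlapped alike. Itga4 also held a GC box (present in 32.7% of stretches) and the RUNX letters (14.0%). No E-box (6.02%), AP-1 (6.75%) or TEAD (12.6%) letters were in these 5 stretches. A match of letters is a description, not a binding site.

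The laminin receptors moved in opposite directions. Itga7, the alpha7 subunit best known from muscle, was at 15.4, 16.2, 14.95 and 15.1 FPKM in HFHG and 9.13, 9.21, 9.01 and 8.92 in LG. The mean went from 9.07 ± 0.127 up to 15.4 ± 0.547 FPKM, or 0.76 on the log2 scale (standard error 0.0400, adjusted p = 4.38e-09). Of the skeletal muscle markers, the 6 analysed here summed to 0.759 to 1.94 FPKM in HFHG and 3.54 to 4.36 in LG. The difference came from Acta1, at 0.904 and 3.38 FPKM (log2 fold change -1.82), while Myod1, Pax7, Des, Ckm and Myh3 were below 0.5 FPKM in every library. Itga6, which encodes the alpha6 subunit shared by many stem and epithelial cells, was at 4.88, 5.36, 5.14 and 4.82 FPKM in HFHG and 7.64, 7.96, 7.21 and 7.06 in LG. It fell by 0.55 on the log2 scale (standard error 0.0577, adjusted p = 2.83e-06). Itga3, the third laminin-binding subunit, overlapped between the groups at 0.880 to 1.09 and 0.816 to 1.196 FPKM (log2 fold change -0.07, adjusted p = 0.633).

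The ratio of members within a library does not depend on how libraries are scaled. Itga6 stood at 0.823 ± 0.0334 of Itga7 in LG and at 0.328 ± 0.0123 in HFHG (SD, n = 4 each, exact permutation p = 0.0286). Itga3 relative to Itga6 was 0.138 ± 0.0243 in LG and 0.191 ± 0.0232 in HFHG, also without overlap (exact permutation p = 0.0286). Itgb4, the partner of alpha6 in hemidesmosomes, was low and rose from 0.406 ± 0.0440 to 0.770 ± 0.0590 FPKM (log2 fold change 0.78, standard error 0.130, adjusted p = 1.74e-04). It held no more than 188 reads in any library and passed the filter through its HFHG libraries alone, all LG libraries being below 0.5 FPKM, so it had to differ to be tested. Epithelial markers, by contrast, summed to 2.54 to 4.22 FPKM in HFHG and 11.7 to 13.9 in LG, nearly all of it Krt19 (log2 fold change -2.06), with the other 7 of 8 below 0.5 FPKM in every library.

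The abundant receptors for fibronectin and vitronectin changed by small steps. Itga5, the alpha5 subunit for fibronectin and the most abundant alpha subunit, was at 57.9, 59.2, 58.4 and 55.6 FPKM in HFHG and 53.8, 52.4, 52.0 and 53.8 in LG. All HFHG libraries were above all LG libraries, by a small step (log2 fold change 0.12, standard error 0.0283, adjusted p = 0.00192). Itgav, the alphav subunit that pairs with several beta subunits and takes part in the activation of latent TGF-beta, was at 29.5, 30.3, 31.1 and 31.6 FPKM in HFHG and 33.9, 37.0, 35.7 and 30.6 in LG. LG replicate 4 fell within the HFHG range, and the fall by 0.16 on the log2 scale (standard error 0.0513, adjusted p = 0.0154) was not called when libraries were scaled to the same sum (adjusted p = 0.144). Itga5 relative to Itgav was 1.55 ± 0.152 in LG and 1.89 ± 0.0945 in HFHG. The nearest libraries of this ratio were LG replicate 4 at 1.755 and HFHG replicate 4 at 1.758, which did not overlap but were hardly apart (exact permutation p = 0.0286). Itga2b, the platelet subunit alphaIIb, was low and rose from 0.461 ± 0.0765 to 0.963 ± 0.183 FPKM (log2 fold change 0.92, standard error 0.158, adjusted p = 2.38e-04). Its HFHG libraries were enough to pass the filter, and in LG only replicate 3 (0.558 FPKM) reached 0.5 FPKM. The test of Itga2b therefore lends little weight beyond the levels themselves. Itga8 stayed below the filter at 0.157 to 0.265 FPKM in HFHG and 0.126 to 0.234 in LG (exact permutation p = 0.0571).

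Among beta subunits, Itgb3 fell and Itgb5 rose. Itgb3, which pairs with alphav and alphaIIb (NCBI gene 16416, chromosome 11 from 104608000 to 104670476), was at 7.03, 6.67, 6.94 and 6.74 FPKM in HFHG and 15.2, 14.0, 14.5 and 13.6 in LG. The libraries of each group lay close together and far from the other group. The mean fell from 14.3 ± 0.708 to 6.84 ± 0.170 FPKM, with a log2 fold change of -1.05 (standard error 0.0465, adjusted p = 8.18e-10), which ranked 161 among the decreases of all tested genes. Itgb5, a further partner of alphav, was at 137, 135, 140 and 136 FPKM in HFHG and 115, 115, 112 and 120 in LG, with a log2 fold change of 0.24 (standard error 0.0272, adjusted p = 5.32e-06). Itgb3 thus stood at 0.124 ± 0.00889 of Itgb5 in LG and at 0.0501 ± 0.000888 in HFHG (exact permutation p = 0.0286). Of its partners, Itgav fell slightly and Itga2b rose. Itgb8, which together with alphav binds latent TGF-beta, was at 1.06, 0.960, 1.13 and 0.926 FPKM in HFHG and 0.665, 0.832, 0.907 and 0.663 in LG. The groups lay just apart (log2 fold change 0.38, standard error 0.128, adjusted p = 0.0214). The call was lost without HFHG replicate 1, HFHG replicate 3, LG replicate 1 or LG replicate 4, with adjusted p-values of 0.0510 to 0.0642. Itgb8 relative to Itgb5 overlapped between the groups (difference in log2 ratio 0.13, exact permutation p = 0.371). Itgb6 was below the filter, at 3 to 15 reads per library.

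Itgb1, the common partner of the collagen, laminin and fibronectin subunits, was by far the most abundant gene of the family. It was at 401, 403, 407 and 408 FPKM in HFHG and 489, 485, 486 and 467 in LG, and no library of one medium reached the other. It fell by 0.25 on the log2 scale (standard error 0.0212, adjusted p = 3.91e-07), although the alpha subunits that pair with it moved both ways. This fall was smaller and not called under quantile normalization (log2 fold change -0.07, adjusted p = 0.0940). Relative to Itgb1, Itgb5 rose from 0.240 ± 0.0126 to 0.338 ± 0.00571 and Itgb3 fell from 0.0297 ± 0.00105 to 0.0169 ± 0.000490, both without overlap (exact permutation p = 0.0286 each).

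Itgb7 had the largest fall of all members. The gene encodes beta7, the partner of alpha4 and alphaE on lymphocytes (NCBI gene 16421, chromosome 15 from 102215995 to 102231944). It was at 0.249, 0.267, 0.229 and 0.225 FPKM in HFHG and 0.873, 0.897, 1.04 and 1.13 in LG, a 4.06-fold lower level. limma gave a log2 fold change of -1.66 (standard error 0.137, adjusted p = 3.08e-07), resting on 201 reads in the 4 HFHG libraries and 797 in the 4 LG libraries. Its partner Itga4, which binds Vcam1 and fibronectin (NCBI gene 16401, chromosome 2 from 79255426 to 79333123), went the other way. Itga4 was at 0.810, 0.701, 0.734 and 0.774 FPKM in HFHG and 0.196, 0.265, 0.182 and 0.215 in LG, with a log2 fold change of 1.45 (standard error 0.145, adjusted p = 1.95e-06). A stretch of 8.04% of its exon bases overlaps Cerkl on the opposite strand. Cerkl was at 0.0948 to 0.264 FPKM in HFHG and 0.266 to 0.365 in LG, opposite in direction to Itga4. Itga9, the nearest relative of Itga4, did not pass the test at 1.48 to 1.87 and 1.67 to 1.79 FPKM (log2 fold change 0.01, adjusted p = 0.962). Itga4 relative to Itga9 accordingly went from 0.126 ± 0.0236 in LG to 0.446 ± 0.0732 in HFHG (exact permutation p = 0.0286). Itga4 passed the filter through its HFHG libraries alone and Itgb7 through its LG libraries alone. Both genes thus had to differ to be tested, so their tests and that of this ratio lend no weight beyond the levels themselves.

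The leukocyte integrins were present in these cultures. Itgam, the alphaM subunit (CD11b) of macrophages and neutrophils, was at 14.1, 14.7, 14.8 and 15.6 FPKM in HFHG and 22.9, 24.1, 24.5 and 23.9 in LG, and it fell by 0.69 on the log2 scale (standard error 0.0394, adjusted p = 9.51e-09). Its exons share 68.7% of their bases with the gene model Gm49368 on the same strand, so its reads are uncertain. Its partner Itgb2 (CD18) was at 17.2, 15.1, 16.4 and 16.5 FPKM in HFHG and 20.9, 20.3, 20.7 and 20.7 in LG, and it fell by 0.34 (standard error 0.0413, adjusted p = 1.16e-05). The other tested partners of beta2 did not pass the test. Itgal (CD11a) was at 0.805 to 0.929 FPKM in HFHG and 0.636 to 1.01 in LG (log2 fold change 0.15, adjusted p = 0.345), and Itgax (CD11c) was at 1.05 to 1.39 and 1.25 to 1.57 FPKM (log2 fold change -0.16, adjusted p = 0.242). Itgad, Itgae and Itgb2l were below the filter, with at most 17, 20 and 4 reads in a library.

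Most of the tested leukocyte and macrophage markers fell, but not all. Of these 12 markers 8 fell and 2 rose, where 30.8% of all tested genes fell and 34.0% rose. The largest falls were in C1qa (log2 fold change -0.97), C1qc (-0.78) and C1qb (-0.68), and the rises were in Aif1 (0.33) and Cd14 (0.26). Ptprc (CD45), the marker shared by leukocytes, stood at 1.98 FPKM in HFHG and 2.26 in LG (log2 fold change -0.19, limma adjusted p = 0.0886). Fcgr1 did not pass either (0.09). Cd163 was below 0.5 FPKM in every library. Their part in the fall of Itgam, Itgb2 and Itgb7 was not tested, and in bulk RNA fewer cells of a type and less RNA per cell cannot be told apart.

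**Figure D2:**
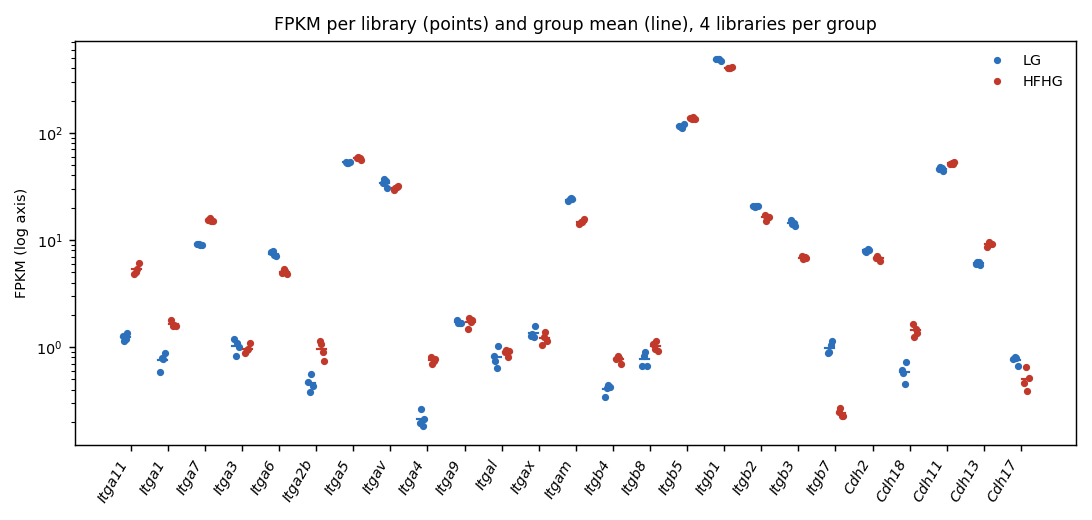
FPKM of each of the 25 tested genes in each library (points, logarithmic vertical axis) with the mean of each group (short line), LG in blue and HFHG in red, 4 libraries per group. Levels run from 0.182 FPKM for Itga4 in an LG library to 489 FPKM for Itgb1 in another LG library.

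The make-up of the family differed between the media, while the summed alpha subunits overlapped. The summed level of the 18 alpha subunits was 138 ± 1.86 FPKM in HFHG and 136 ± 2.20 FPKM in LG, while that of the 9 beta subunits was 567 ± 4.71 and 634 ± 7.52 FPKM (SD, n = 4 each). In both media Itga5 came first and Itgav next, with 41.8% and 22.2% of the alpha sum in HFHG and 39.0% and 25.2% in LG. The places after them changed. In LG, Itgam followed with 17.5%, then Itga7 with 6.67% and Itga6 with 5.49%, and no neighbours among these overlapped. In HFHG, Itga7 (11.2%) and Itgam (10.7%) overlapped in their levels, as did Itga11 (3.84%) and Itga6 (3.66%). Itga11 had been 0.913% of the alpha sum in LG. Of the beta sum, Itgb1 made up 75.9% in LG and 71.4% in HFHG, and Itgb5 18.2% and 24.1%. Itgb2 held 3.25% in LG and 2.87% in HFHG, and Itgb3 2.26% and 1.21%.

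**Figure D3:**
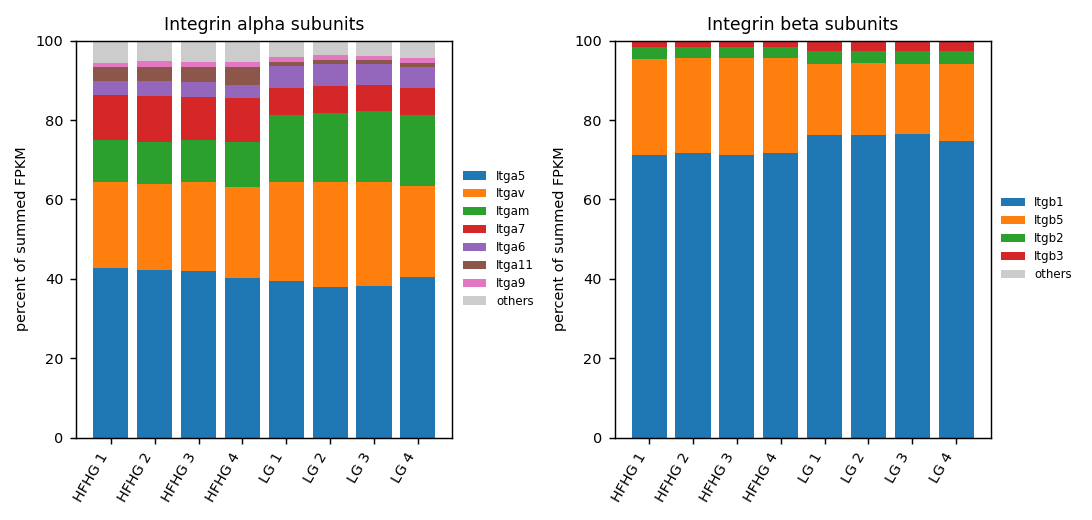
Share of each integrin subunit in the summed FPKM of all alpha subunits (left) and all beta subunits (right) in each of the 8 libraries, in percent. The Itgam and Itga6 bands are narrower and the Itga7 and Itga11 bands wider in the 4 HFHG libraries, and among beta subunits the Itgb5 band is wider.

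Of the 23 cadherins, 5 were tested and all passed, 3 higher and 2 lower, where 64.8% of all tested genes passed (34.0% higher and 30.8% lower). Cdh11, the mesenchymal cadherin-11, made up 72.5% of the summed cadherin FPKM in HFHG and 72.4% in LG. It was at 51.5, 52.4, 51.1 and 53.4 FPKM in HFHG and 45.9, 48.3, 46.5 and 43.8 in LG, a small rise (log2 fold change 0.18, standard error 0.0330, adjusted p = 4.58e-04). Cdh2, which encodes N-cadherin on chromosome 18, was at 6.74, 7.07, 6.67 and 6.37 FPKM in HFHG and 7.95, 7.77, 8.24 and 8.04 in LG, and it fell by 0.25 (standard error 0.0485, adjusted p = 6.12e-04). Cdh13, or T-cadherin, is held in the membrane by a lipid anchor and lacks the tail that binds catenins. It was at 8.67, 9.63, 9.11 and 9.23 FPKM in HFHG and 5.97, 6.20, 6.28 and 5.81 in LG, with a log2 fold change of 0.59 (standard error 0.0501, adjusted p = 4.21e-07). The order of these cadherins was exchanged, since Cdh2 exceeded Cdh13 in every LG library and Cdh13 exceeded Cdh2 in every HFHG library. Cdh13 stood at 0.758 ± 0.0314 of Cdh2 in LG and 1.37 ± 0.0666 in HFHG, and Cdh2 at 0.174 ± 0.00959 and 0.129 ± 0.00671 of Cdh11 (SD, n = 4 each, exact permutation p = 0.0286 for both).

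The remaining tested cadherins were low. Cdh18, a type II cadherin known from the nervous system (NCBI gene 320865, chromosome 15 from 22549022 to 23474418), was at 1.65, 1.24, 1.49 and 1.35 FPKM in HFHG and 0.608, 0.568, 0.455 and 0.719 in LG. limma gave a log2 fold change of 1.16 (standard error 0.139, adjusted p = 9.90e-06), on 969 reads in HFHG and 387 in LG. Sox10, a marker of Schwann cells, the glia of peripheral nerve, was higher in HFHG at 2.13 against 1.43 FPKM (log2 fold change 0.55), and the part of such cells in this rise was not tested. Cdh17, the liver and intestine cadherin, was at 0.465, 0.644, 0.392 and 0.509 FPKM in HFHG and 0.769, 0.809, 0.787 and 0.666 in LG. It fell by 0.52 (standard error 0.148, adjusted p = 0.00769).

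**Figure D4:**
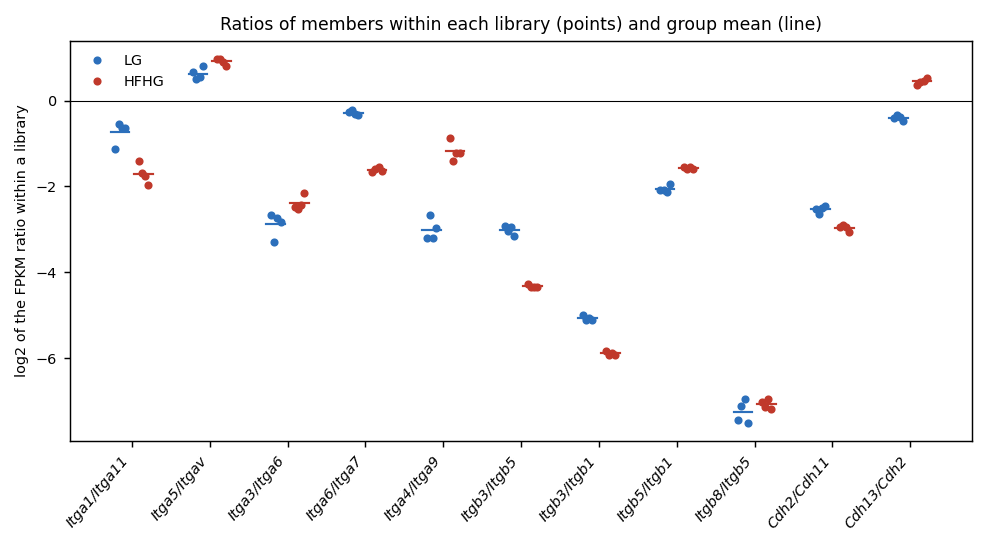
Log2 of the FPKM ratio of paired genes within each library (points) and the group mean (line), LG in blue and HFHG in red. In 10 of the 11 pairs the groups do not overlap, and in Itgb8/Itgb5 they do. The share for pairs of other genes was not computed.

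Of 15 pairs of members planned for a ratio, 11 had both genes past the filter. The groups did not overlap for 10 of these ratios, with an adjusted p of 0.0314 over the 11 ratios (exact two-sided permutation tests over 70 arrangements). Of all single tested genes, 59.2% did not overlap. The share among ratios of other gene pairs was not computed, so this count is not shown to be particular to integrins and cadherins. The largest differences in log2 ratio were those of Itga4/Itga9 (1.44), Itga6/Itga7 (-1.31) and Itgb3/Itgb5 (-1.30). Itga4 passed the filter through its HFHG libraries alone, so its ratio had to differ and lends no weight to the count. Several of these ratios share a gene and are not independent of each other or of the tests of their genes.

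The 25 members below the filter comprised 7 integrins and 18 cadherins. In 19 of them at least 1 library held 10 or more reads, and these were compared by exact two-sided permutation tests. The groups did not overlap for 5, all cadherins (each exact permutation p = 0.0286, unadjusted). Among all 3395 genes below the filter with as many reads, 18.4% did not overlap. Cdh3, or P-cadherin, was at 0.0928, 0.133, 0.110 and 0.142 FPKM in HFHG and 0.0578, 0.00682, 0.0769 and 0.0487 in LG. Cdh22 was at 0.107, 0.103, 0.0968 and 0.127 FPKM in HFHG and 0.0145, 0.0366, 0.0468 and 0.0699 in LG. These were the low cadherins that were higher in HFHG. The others were lower in HFHG, and all are type II cadherins. Cdh6 was at 0.218, 0.176, 0.182 and 0.210 FPKM in HFHG and 0.310, 0.286, 0.258 and 0.353 in LG. Cdh10 was at 0.147, 0.232, 0.159 and 0.175 FPKM in HFHG and 0.240, 0.296, 0.258 and 0.308 in LG. Cdh19, a cadherin of Schwann cells and neural crest, was at 0.254, 0.252, 0.180 and 0.298 FPKM in HFHG and 0.340, 0.326, 0.344 and 0.323 in LG, while Sox10 was higher in HFHG.

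E-cadherin and VE-cadherin, which define epithelium and endothelium, were nearly missing. Cdh1 held 37, 34, 12 and 37 reads in the HFHG libraries and 5, 29, 8 and 6 in the LG libraries, so LG replicate 2 lay within the HFHG range (exact permutation p = 0.0571). Cdh5 was at 0.0265 to 0.138 FPKM in HFHG and 0.133 to 0.195 in LG (exact permutation p = 0.0571), and the 8 endothelial markers summed to 1.84 to 2.37 and 1.83 to 2.58 FPKM, with Vwf lower in HFHG (log2 fold change -1.20) and Tek higher (0.47). Vwf was at 0.358 to 0.418 FPKM in HFHG and 0.925 to 1.09 in LG. It passed the filter through its LG libraries alone, so it had to differ to be tested. The defining markers Pecam1, Kdr, Tie1, Emcn and Cldn5 were below 0.5 FPKM in every library. The groups overlapped as well for Cdh4, Cdh12, Cdh15, Cdh23, Cdh24 and Cdh26, with exact permutation p-values of 0.143 to 1, and their means lay between 0.00818 and 0.531 FPKM. Cdh7, Cdh8, Cdh9, Cdh16 and Cdh20, like Itgb2l, had fewer than 10 reads in each library and no difference was detectable at this depth. A count of 0 in a library still allows up to 3 reads, by counting error alone.

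**Figure D5:**
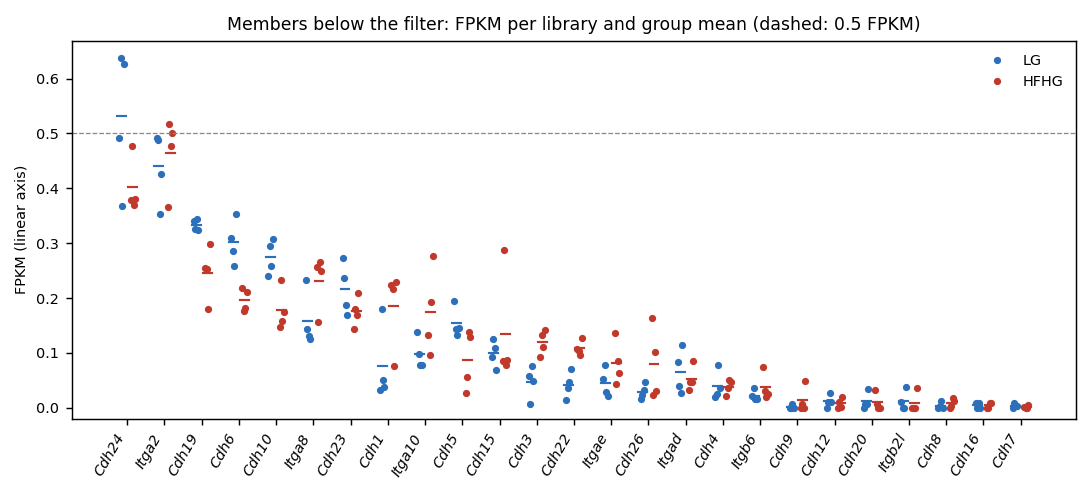
FPKM of the 25 members below the filter in each library (points, linear vertical axis) with the mean of each group (line), LG in blue and HFHG in red; the dashed line marks 0.5 FPKM. Cdh24 and Itga2 lie nearest to that line, and Cdh6, Cdh10 and Cdh19 are lower in all HFHG libraries.

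Some members lay close to the filter. Just inside it were Cdh17, at 0.502 and 0.758 FPKM, and Itga4, at 0.755 and 0.214 FPKM in HFHG and LG, which passed through its HFHG libraries. Itgb4, at 0.770 and 0.406 FPKM, likewise passed through its HFHG libraries, and Itgb7, at 0.242 and 0.985 FPKM, through its LG libraries. A gene that passes through the libraries of only 1 medium has to differ between the media, so the calls of Itga4, Itgb4 and Itgb7 lend no weight to the counts of members called. Itga2b, at 0.963 and 0.461 FPKM, was close to this case, since in LG only replicate 3 reached 0.5 FPKM. Its call lends little weight to these counts. Just outside were Itga2, at 0.465 and 0.440 FPKM, and Cdh24, at 0.401 and 0.531 FPKM.

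Genes for the proteins that link these receptors to actin were called in both directions, at shares near those of all tested genes (34.0% higher and 30.8% lower). Of the 29 tested of 30 genes of the integrin adhesion machinery, 9 rose, 11 fell and 9 did not pass, with a median log2 fold change of 0.02. Nedd9, a scaffold of the Cas family, rose from 1.82 to 6.29 FPKM (log2 fold change 1.74). Parvg, the parvin of blood cells, fell from 1.43 to 0.632 FPKM (-1.08), and Ptk2b, the kinase related to focal adhesion kinase, rose from 6.08 to 10.1 FPKM (0.72). Of the 11 tested of 14 catenins and cadherin partners, 3 rose, 4 fell and 4 did not pass, with a median of -0.01. The largest changes were the rises of Jup (plakoglobin, 1.06), Arvcf (1.02) and Ctnnd1 (p120-catenin, 0.76). The 4 that fell were Afdn (-0.41), Ctnnb1 (beta-catenin, from 236 to 194 FPKM, -0.28), Rhoa (-0.13) and Ctnna1 (alpha-catenin, -0.12), so the catenins did not all move one way.

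Most of the tested ligands rose. Of the 24 tested of 29 integrin ligands, 15 rose, 5 fell and 4 did not pass (34.0% of all tested genes rose and 30.8% fell), with a median log2 fold change of 0.45 against 0.02 for all tested genes. Tgfb3, a latent cytokine released by alphav integrins, rose from 9.48 to 30.04 FPKM (log2 fold change 1.65), Svep1, a ligand of alpha9beta1, from 22.8 to 63.6 FPKM (1.48) and Col1a1, the alpha1 chain of collagen I, from 206 to 529 FPKM (1.36). The 5 that fell were Fn1 (fibronectin, from 809 to 471 FPKM, -0.78), Lama2 (-0.67), Lamb1 (-0.33), Lama4 (-0.29) and Tgfb1 (-0.27). Receptors went the same way as a ligand in some cases and not in others. Itga11 rose with Col1a1, and Itgav fell slightly with Tgfb1. By contrast, Itga9 did not pass while Svep1 rose, Itgav fell while Tgfb3 rose, and Itga5 rose slightly while Fn1 fell. Mural cell markers, as a further cell type in tendon, summed to 107 to 111 FPKM in HFHG and 76.4 to 78.3 FPKM in LG (Notch3 1.10, Acta2 0.60 and Cspg4 0.59 on the log2 scale), while Rgs5 and Myh11 were below 0.5 FPKM in every library. Their part in the rise of Itga1 and Itga7, which mural cells also express, was not tested.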

How the data were processed

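The samples were 8 mRNA libraries of mouse TSCs, 4 in HFHG medium (25.5 mM glucose, 300 µM palmitic acid) and 4 in LG medium (5.5 mM glucose), grouped by their labels. The doses come from the paper. The authors deposited FPKM, that is fragments scaled by gene length and by mapped fragments, for 19301 genes. The submitters' processing notes name HISAT2 2.1.0 and mm10, and the counting program, its use of strand and the annotation are not given in the sources used here. Nothing says whether the replicates came from separate animals, so p-values measure the spread between these cultures.

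Genes with at least 0.5 FPKM in at least 4 libraries (11710) were tested with limma 3.58.1 in R 4.3.3 (lmFit, eBayes with an intensity trend) on log2(FPKM + 0.1), with Benjamini-Hochberg adjustment over all of them. Ratios, and genes below the filter with 10 or more reads in a library, were compared by exact permutation over 70 arrangements. Reads were recovered as whole multiples of the FPKM of a single read, within 0.001, for 19300 genes, and made up 99.8% of the library totals. Of 200 changed genes simulated among 11710, limma recovered 183, and it also called 12 unchanged genes. In the data themselves 64.8% of the tested genes were called, a far larger share than was changed in the simulation. Its figures therefore check the code and do not give the error rate of the calls reported here.

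Positions and exon overlaps come from GENCODE M21 (GRCm38), and NCBI gene numbers from the deposited table. Promoter sequences come from RefSeq (GRCm38.p6), matched by symbol for 32 of the 50 genes. The plan to show protein ends was dropped, since no protein sequences were used here, and promoters were shown in their place. All integrins and cadherins are named, with up to 3 genes of each other list by the largest change at an adjusted p below 0.05. Further genes of some lists are named to show changes in the other direction or none, and Scx and Tnmd because the paper measured them by qPCR. Members, lists and tests were chosen with earlier results of these data known. The alternatives were the pseudocount (1 or 0.01), the filter, the scaling, the replicate block, robust eBayes, voom on the recovered reads and each library left out in turn. The summed level of the Schwann cell markers is not reported here.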

Additional observations from a re-analysis of the deposited data

Results flagged for a closer look

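Among 50 groups of 4 libraries (25 tested genes in 2 media), 3 held a library whose gap to the nearest other library was a larger part of the range of the group than Dixon's 95% critical value for 4 samples. Chance gives about 1 in 20 groups. Itga1 was at 1.79 FPKM in HFHG replicate 1 and at 1.55 to 1.59 FPKM in the other HFHG libraries (a gap of 0.843 of the range). Itga9 was at 1.79 FPKM in LG replicate 1 and at 1.67 to 1.68 FPKM in the other LG libraries (a gap of 0.922 of the range). Itgb1 was at 467 FPKM in LG replicate 4 and at 485 to 489 FPKM in the other LG libraries (a gap of 0.831 of the range).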

How the results depend on the processing

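The count of members that rose was 12, and 8 to 14 under the alternatives (8 of the 17 members left at a minimum of 1 FPKM, 14 of 50 without a filter). The count that fell was 9, and 7 to 11 at the same settings. With a library left out the counts were 11 to 12 and 9 to 9. The number past a log2 fold change of 1 or -1 was 6, and 5 to 7 with a library left out, but 1 (Itga11) with a pseudocount of 1, which compresses low genes. With the replicate number as a block (replicate block), 12 rose, 9 fell and 6 were past the bound. No pairing by replicate number was seen. Deviations of same-numbered libraries correlated at -0.0736 to -0.00558, and 0 of 4 correlated best with their own number. Such correlations over all tested genes cannot exclude a shared origin that affects only some genes. The block changed no call among the members. Same-sum, median-ratio and quantile scaling moved the median of all genes to 0.0749, -0.0190 and -0.0218.

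Itga9, near 0, changed sign with median-ratio scaling (-0.0297), quantile normalization (-0.130) and with a library left out (-0.0346 to 0.0715). Itga3 was at -0.166 to 0.000391 with a library left out, turning without LG replicate 1, Itgal turned to -0.0220 with quantile normalization, and the log2 ratio Itgb8/Itgb5 to -0.0486 with a pseudocount of 1. None of these was called. Calls lost were those of Itgav (same sum, adjusted p = 0.144, and quantile, 0.0870), Itgb1 (quantile, 0.0940) and Itgb8 (quantile, 0.159, and without HFHG replicate 1, 0.0510, HFHG replicate 3, 0.0642, LG replicate 1, 0.0617, or LG replicate 4, 0.0558), all by limma. Itgax was called with quantile normalization (-0.28, adjusted p = 0.0470). The causes were not tested. Genes under 10 reads per library are limited by depth.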
